A study of Medicago ruthenica with 9 samples.

Results

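The miR398 and miR2119 signals of Medicago ruthenica leaves were described through 4 names of the deposited miRNA table: both strands of miR398a (mtr-miR398a-3p_L+1R-1 and mtr-miR398a-5p), mtr-miR398b and mtr-miR2119. They were chosen by name, not by their values, and are 4 of the 595 miRNA names in the table. Small RNA was sequenced from leaves in 9 libraries, 3 for each of 3 groups of seedlings that entered the treatments at 4 weeks of age. Rewatered plants (RW) went 15 days without water, were then rewatered to full soil saturation and were sampled 2 days later. Drought-stressed plants (DS) went 15 days without water and were sampled on that day, at 20% relative soil moisture. Control plants (CK) received water every 3 days, kept a relative soil moisture above 80% and were sampled on the same day as DS. All groups were grown in pots of 8 plants with no added nutrients. RW leaves were therefore 2 days older than DS and CK leaves, and rewatering and this age difference cannot be told apart. The number of plants behind a library is not stated. The labels call the libraries of a group biological replicates.

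Plant miR398 guides Argonaute proteins to the mRNAs of copper/zinc superoxide dismutases and of the copper chaperone that loads them, and it is known for accumulating when copper is short. The 3p strand of its hairpin is the guide that acts on these mRNAs, and the 5p strand is the passenger that is mostly degraded after the duplex is opened. miR2119 is a legume miRNA that silences an alcohol dehydrogenase mRNA, and in common bean it is cut from 1 precursor shared with miR398a. The mRNAs of superoxide dismutase and alcohol dehydrogenase and the degradome libraries were not analysed here.

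The 4 sequences are shown because they define the strands of miR398a and the miR398 variants compared below. The strand ratio was computed from the values in the table, and no target search was run on the sequences. They are written 5′ to 3′ with T for U, as the table lists them, and bases 2 to 8, the seed, are in capitals.
mtr-miR398a-3p_L+1R-1: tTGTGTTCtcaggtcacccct
mtr-miR398a-5p: gGAGTGACactgagaacacaag
mtr-miR398b: tGTGTTCTcaggtcgcccctg
mtr-miR2119: tCAAAGGGaggtgtggagtag

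The miR398a-3p, miR398b and miR2119 sequences are 21 nt long and begin with T, the 5′ base (U in RNA) that the plant Argonaute AGO1 prefers, while miR398a-5p is 22 nt long and begins with G. The ending L+1R-1 of the name marks a sequence that is 1 base longer at its 5′ end and 1 base shorter at its 3′ end than the reference miRNA. The miR398b sequence starts 1 base after miR398a-3p on a shared stretch of 20 bases and differs in that stretch by 1 substitution, A16G, counted from the 5′ end of miR398a-3p with the base of miR398a-3p first. Their seeds are therefore offset by 1 base and are not identical as windows. No other name of the table shared a seed window or a whole sequence with any of the 4 names. The predicted duplex of miR398a-5p with miR398a-3p held 19 base pairs at -30.3 kcal/mol, that of miR398a-5p with miR398b held 18 pairs at -29.0 kcal/mol, and that of miR398a-5p with miR2119 held 7 pairs at -5.8 kcal/mol. The table links miR398b to an assembled transcript and gives no transcript for the other names, so a shared precursor of miR398a and miR2119 could not be looked for in this species.

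The values, called normalized counts here, were made by the authors from read counts with 1 scaling factor for each library. They summed to 1237467 to 1718279 per library. Within a library, low values fell on multiples of a fixed step, of 0.460 to 0.617 in RW, 0.788 to 0.893 in DS and 0.252 to 0.310 in CK. The smallest value above 0 was 2.30 to 3.09 in RW, 3.94 to 4.21 in DS and 0.652 to 1.55 in CK, so a 0 in DS or RW covers levels that CK libraries still list. The libraries listed 347 to 376 names above 0 in RW, 283 to 305 in DS and 423 to 489 in CK. Names of families taken here to be rRNA- or tRNA-fragment-like held 1.80 to 2.35% of the table in RW, 1.08 to 2.28% in DS and 0.482 to 0.609% in CK. This share was taken as a possible sign of RNA quality, which was not examined itself. A response of these names to the treatments cannot be told apart from it. The libraries of CK thus stood apart in step, in names listed and in fragment-like share, and the part of these differences in the results for miR398 and miR2119 was not tested.

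All 4 names were lower in every DS and every RW library than in any CK library, and together they made up 0.00593 ± 0.00430% of the table in RW, 0.0127 ± 0.00563% in DS and 0.0867 ± 0.00880% in CK (SD, n = 3 each). Such a separation was found for 18.3% of the 339 names tested in DS vs. CK and for 10.9% in RW vs. CK. With limma on log2 (value + 1) and a Benjamini-Hochberg adjusted p under 0.05, 3 of the 4 names fell in DS vs. CK, where 3.24% of the names tested fell and 2.06% rose. The same number, 3 of 4, fell in RW vs. CK, where 2.36% of the names tested fell and 2.95% rose. None of the 4 passed in RW vs. DS, where 0.885% of the names tested fell and 1.47% rose, and 14.2% had an unadjusted p under 0.05. In that comparison miR2119 had no value above 0 and miR398a-5p had 1, so it bears on miR398a-3p and miR398b, and neither had an unadjusted p under 0.05. The names that passed in both comparisons with CK were miR398a-3p, miR398a-5p and miR2119, while miR398b passed in neither. miR2119 reached the minimum for testing only through its CK values, so its calls were built in by that filter. miR398a-5p reached it through its CK values and RW replicate 2, and could not have done so without CK, so its calls leaned on the same filter. The counts of 3 are therefore descriptions that are not to be read against the shares of all names. In the joint test of the 3 groups the same 3 names passed, beside 7.08% of all names tested.
The median log2 fold change over the 4 names was -4.29 in DS vs. CK, -4.43 in RW vs. CK and -0.66 in RW vs. DS, against medians over all names tested of -0.36, -0.11 and 0.16 in the same comparisons. DS vs. CK and RW vs. CK share the CK libraries, so their values are given side by side and not as independent evidence. Values at 0 enter these fold changes through the added 1, so for miR398a-5p and miR2119 their size depends on that constant.

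**Figure D1:**
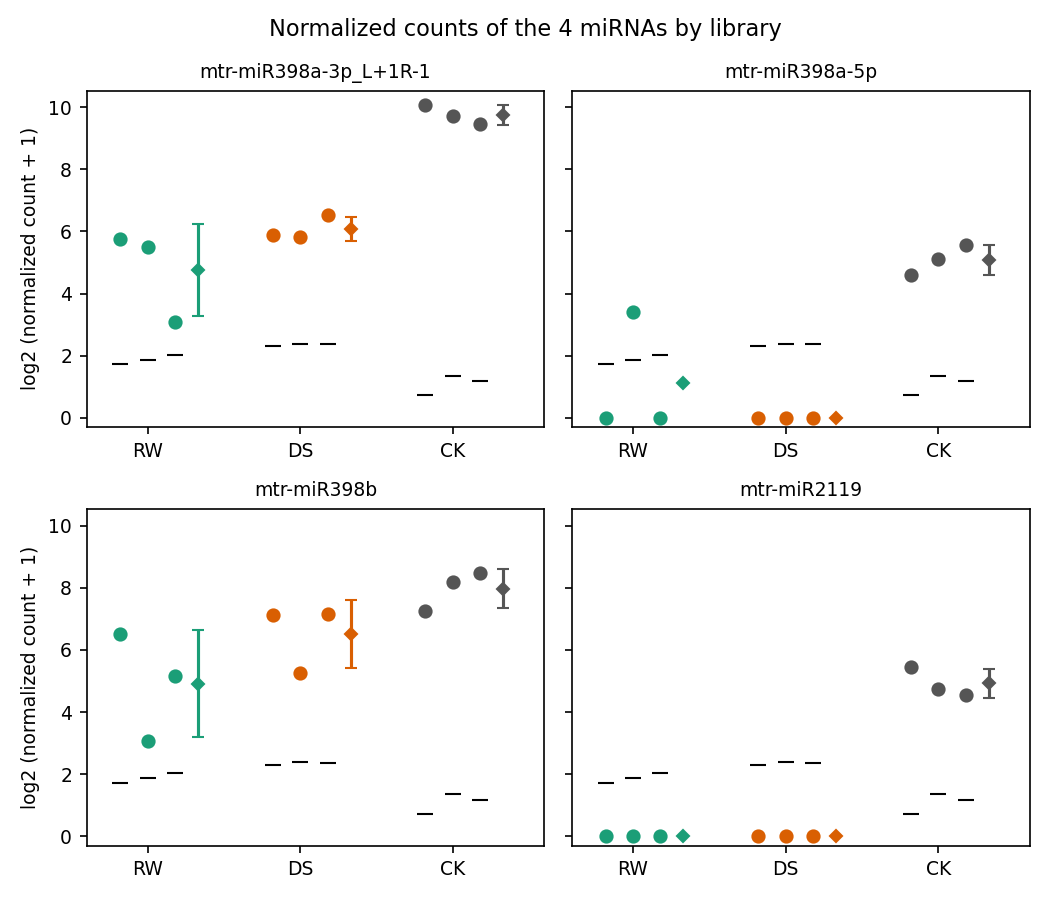
Normalized counts of the 4 miRNAs in each library, as log2 (value + 1) on the vertical axis and by group (RW, DS, CK) on the horizontal axis. Points are libraries, black dashes the smallest value above 0 that each library lists, and diamonds group means, with SD (n = 3) where all 3 libraries are above 0. The CK libraries lie highest in all 4 panels, and miR2119 is listed at 0 in all RW and DS libraries.

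miR398a-3p, the guide strand, was the most abundant of the 4 in CK and fell in both treatments. It had 52.5, 43.7 and 7.40 normalized counts in the 3 RW libraries, 58.3, 55.6 and 91.0 in the 3 DS libraries, and 1071, 841 and 696 in the 3 CK libraries. The groups did not overlap, with RW lowest and CK highest. Its mean was 34.5 ± 23.9 in RW, 68.3 ± 19.7 in DS and 869 ± 189 in CK (SD, n = 3 each), which placed it 130 of 595 names by mean level in RW, 108 in DS and 37 in CK.
The mean in DS was 12.7-fold lower than in CK, with a log2 fold change of -3.66 (SE 0.61, 95% interval -5.01 to -2.32, limma adjusted p = 0.00798). The mean in RW was 25.2-fold lower than in CK, with a log2 fold change of -4.98 (SE 0.61, limma adjusted p = 0.00199). RW lay no nearer to CK than DS did. Every RW library was below every DS library, a separation seen for 6.19% of the names tested, but the RW vs. DS log2 fold change of -1.31 did not pass (95% interval -2.66 to 0.03, limma adjusted p = 0.352). One library carries much of that last difference, since RW replicate 3 had 7.40 and the other RW libraries had 52.5 and 43.7.
The call in DS vs. CK was lost without CK replicate 1 (limma adjusted p = 0.0577) or CK replicate 2 (limma adjusted p = 0.0563), while the log2 fold change stayed at -3.50 and -3.68. The call in RW vs. CK was kept in all settings tried.

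**Figure D2:**
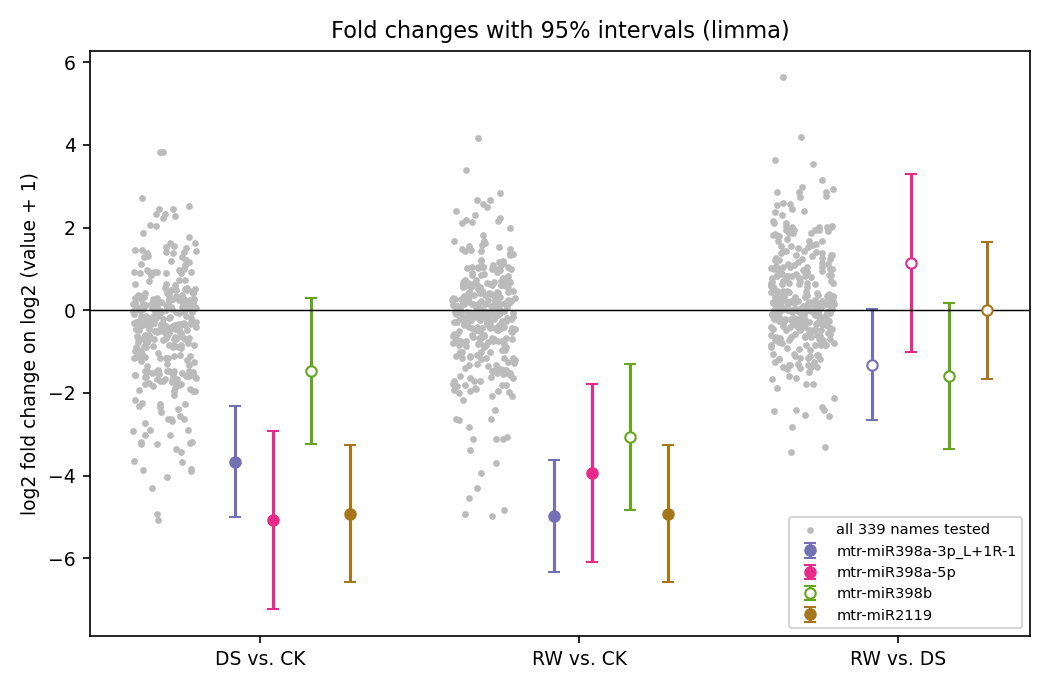
Log2 fold changes of normalized counts on the log2 (value + 1) scale (vertical axis) for DS vs. CK, RW vs. CK and RW vs. DS (horizontal axis), with the first group over the second. Grey points are all 339 names tested and coloured points the 4 miRNAs with 95% intervals from limma, filled where the adjusted p is under 0.05. miR398a-3p, miR398a-5p and miR2119 are filled in both comparisons with CK, and no point is filled in RW vs. DS.

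miR398a-5p, the passenger strand, was a minor product of the hairpin in CK and was listed in only 1 of the 6 libraries of the other groups. It had 0, 9.59 and 0 normalized counts in the RW libraries and 0 in all 3 DS libraries, against 22.96, 33.5 and 45.8 in the CK libraries, whose mean was 34.1 ± 11.4 (SD, n = 3). Neither RW nor DS overlapped CK. The log2 fold change was -5.08 in DS vs. CK (SE 0.98, limma adjusted p = 0.0144) and -3.94 in RW vs. CK (SE 0.98, limma adjusted p = 0.0420).
RW vs. DS gave 1.14 (95% interval -1.02 to 3.29, limma adjusted p = 0.648), and that value comes from RW replicate 2 alone. The call in DS vs. CK was lost without any 1 CK library (limma adjusted p = 0.0790 to 0.0921). The call in RW vs. CK was lost without any 1 CK library, without RW replicate 1 or without RW replicate 3 (limma adjusted p = 0.118 to 0.201). It was also lost with pseudocounts of 0.1 (limma adjusted p = 0.118) and 0.5, with median-of-ratios scaling, with no filter and with the replicate block (limma adjusted p = 0.0509 to 0.0634 for the last 4).

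The strand ratio could be read in CK but hardly in the other groups. The 5p strand was 2.10, 3.83 and 6.17% of the summed miR398a strands in the CK libraries, a mean of 4.03 ± 2.04% (SD, n = 3), so the guide exceeded the passenger 46.7-, 25.1- and 15.2-fold. The 5p share was 0, 18 and 0% in the RW libraries and 0% in all 3 DS libraries. An exact permutation test over the 3 groups gave p = 0.571. The smallest p possible would be 0.00357 without ties, and the shares tied at 0 raise it.
In pairs, the difference was -4.03 percentage points in DS vs. CK (2-sided exact permutation test, p = 0.1). That is the smallest p that 3 libraries against 3 allow. The difference was 1.97 in RW vs. CK (exact p = 1) and 6.0 in RW vs. DS. In RW vs. DS only RW replicate 2 is above 0, so every arrangement gives the same difference in size and that test could not decide.
At the mean CK ratio of 5p to 3p, 4.23 ± 2.23% (SD, n = 3), the 3p value of each RW and DS library would go with 0.313 to 3.85 normalized counts of 5p. In each of these 6 libraries that is below the smallest value the library lists. A 5p strand listed at 0 there is what a ratio unchanged from the CK mean would also give, so the zeros do not show a changed ratio. The margin was small in DS replicate 3 (3.85 against 4.17) and in RW replicate 1 (2.22 against 2.30). The CK ratios ran from 2.14 to 6.58%, and a ratio above the mean could have put 5p over the smallest value in such libraries.
RW replicate 2 is the exception, with 9.59 normalized counts of 5p, against 1.85 at the CK ratio. The 5p strand was 21.95% of the 3p strand there, above the 2.14 to 6.58% of the CK libraries.

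**Figure D3:**
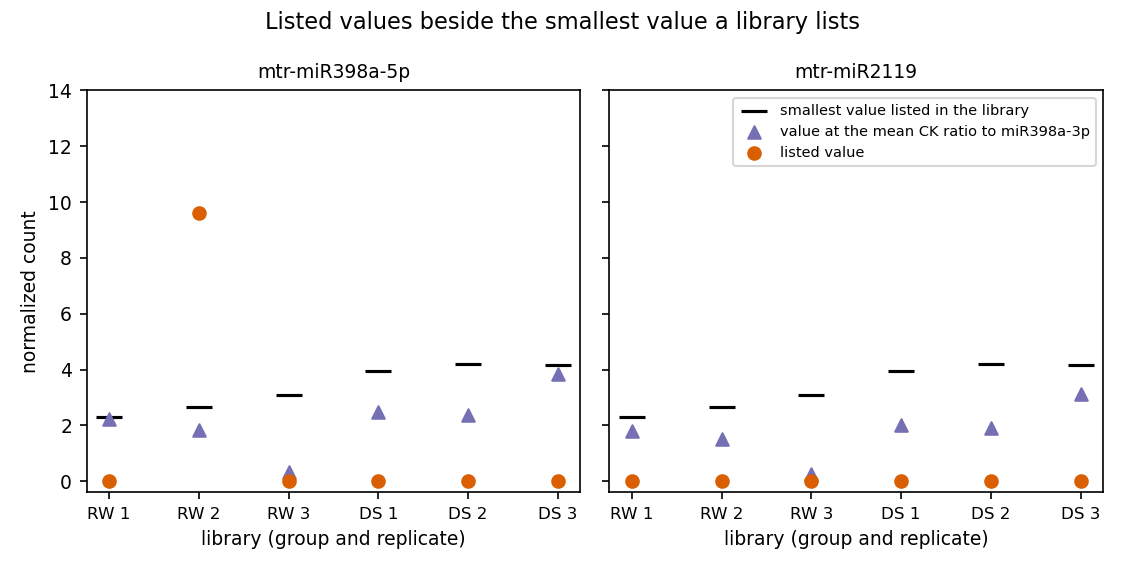
Normalized counts (vertical axis) of miR398a-5p and miR2119 in the RW and DS libraries (horizontal axis): the listed value (circles), the value that the mean CK ratio to miR398a-3p would give (triangles) and the smallest value above 0 in the library (dashes). All triangles lie below their dash, and the only circle above 0 is miR398a-5p at 9.59 in RW replicate 2.

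miR398b, the variant that shares a stretch of 20 bases with miR398a-3p, was lower in both treatments than in CK but its differences did not pass. It had 89.3, 7.46 and 34.6 normalized counts in the RW libraries, 139, 37.1 and 141 in the DS libraries, and 152, 287 and 357 in the CK libraries. RW and DS overlapped each other, and the highest DS library was close to the lowest CK library. The means were 43.8 ± 41.7 in RW, 106 ± 59.4 in DS and 265 ± 104 in CK (SD, n = 3 each).
In DS vs. CK the mean was 2.51-fold lower, with a log2 fold change of -1.46 (95% interval -3.23 to 0.31, limma adjusted p = 0.311). In RW vs. CK it was 6.06-fold lower, with a log2 fold change of -3.06 (SE 0.80, 95% interval -4.83 to -1.29), just outside the threshold (limma adjusted p = 0.0523). RW vs. DS gave -1.60 (SE 0.80, limma adjusted p = 0.368). The RW vs. CK difference passed in several of the other settings, among them without RW replicate 1 (limma adjusted p = 0.0248) and without DS replicate 2 (limma adjusted p = 0.0354).

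As shares of the 2 guide sequences, miR398b made up the smaller part in every CK library and the larger part in 4 of the 6 RW and DS libraries. It was 63.0, 14.6 and 82.4% of miR398b plus miR398a-3p in the RW libraries, 70.4, 40 and 60.8% in the DS libraries, and 12.5, 25.5 and 33.9% in the CK libraries. The means were 53.3 ± 34.9% in RW, 57.1 ± 15.5% in DS and 23.9 ± 10.8% in CK (SD, n = 3 each). Every DS library was above every CK library, whereas RW replicate 2 lay inside the CK range.
The joint test of the 3 groups did not pass (exact permutation test, p = 0.232). The pairwise differences were 33.1 percentage points in DS vs. CK (exact permutation p = 0.1, the smallest possible), 29.4 in RW vs. CK (exact permutation p = 0.3) and -3.75 in RW vs. DS (exact permutation p = 0.9). Without RW replicate 2 the joint p was 0.0214 (exact permutation test), so that 1 library decides the call.
The sum of both guide sequences was 42.0 to 142 in RW, 92.7 to 232 in DS and 1053 to 1224 in CK. In CK this sum varied less than its parts, at 1135 ± 85.5 (SD, n = 3), and the CK library with the most miR398a-3p had the least miR398b.

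**Figure D4:**
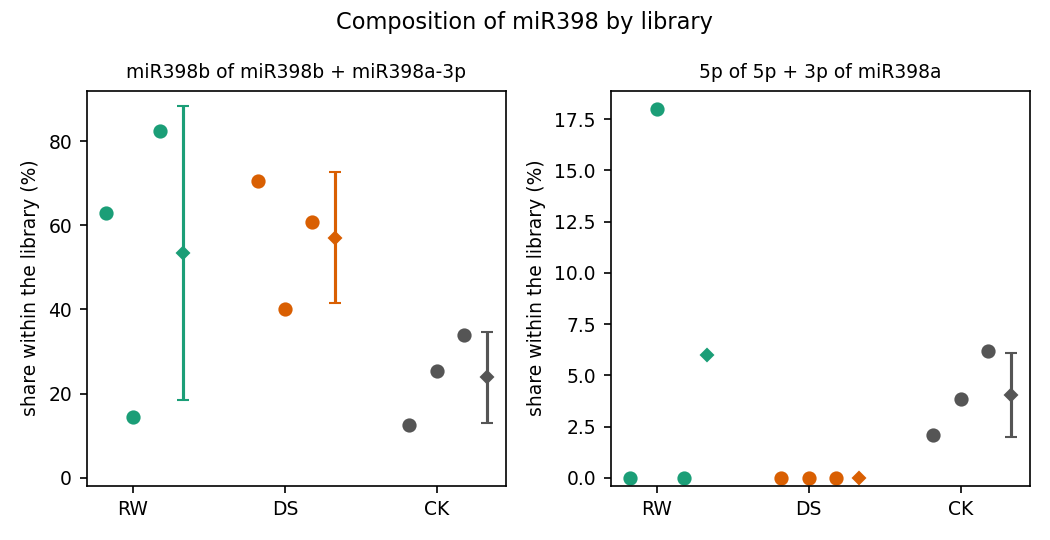
Composition of miR398 within each library, in percent (vertical axes), by group (RW, DS, CK): on the left miR398b as a share of miR398b plus miR398a-3p, on the right the 5p strand as a share of both miR398a strands. Points are libraries and diamonds group means, with SD (n = 3) where all 3 libraries are above 0. On the left the DS libraries (40 to 70.4%) lie above the CK libraries (12.5 to 33.9%), and on the right RW replicate 2 stands alone at 18%.

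miR2119 was listed in CK only. It was at 0 in all 3 RW libraries and in all 3 DS libraries, against 42.8, 26.0 and 22.6 normalized counts in the CK libraries, a mean of 30.5 ± 10.8 (SD, n = 3). All 3 CK values lie above the smallest value that any RW or DS library lists. The log2 fold change was -4.92 in each comparison with CK (SE 0.75, limma adjusted p = 0.00758 in DS vs. CK and 0.00358 in RW vs. CK), and it has no size of its own because one side is listed at 0. These calls were built in by the minimum for testing, which miR2119 reached through its CK values alone.
Of the names tested, 4.72% were above 0 in all CK libraries and at 0 in all DS libraries, and 0.59% were at 0 in all DS and RW libraries as well. Those 2 names were miR2119 and PC-3p-78936_58, a miRNA that the authors predicted. Among the 46 names tested with a CK mean of 20 to 50, a range that holds that of miR2119, 3 (6.52%) were at 0 in all DS libraries, namely miR2119, miR398a-5p and mtr-miR399q. Of these 46 names 1 (2.17%), miR2119, was at 0 in all RW libraries as well. A name at 0 in all DS and RW libraries was tested only if all 3 CK values reached the minimum of 5. The miR397 names mdm-miR397a_L+1R-1 and mtr-miR397-5p_L-2R+2 were also above 0 in CK libraries only, but too low to be tested. These shares are therefore descriptions of the names that passed the minimum and do not show that the pattern of miR2119 is rare.
miR2119 had a steady ratio to the miR398a guide in CK, at 3.99, 3.10 and 3.25% of miR398a-3p, a mean of 3.45 ± 0.480% (SD, n = 3). At that ratio the RW and DS libraries would hold 0.255 to 3.14 normalized counts of miR2119, below the smallest value listed in each of them. The zeros therefore show that miR2119 was below its CK level, and do not show that it fell by more than miR398a-3p did.

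The 4 names shared a group difference with CK above the other groups, and their pairwise r across the 9 libraries ran from 0.35 to 0.92. On log2 (value + 1), Pearson's r with miR398a-3p was 0.92 for miR2119, 0.82 for miR398a-5p and 0.70 for miR398b, and Spearman's rho was 0.84 for miR2119, 0.62 for miR398a-5p and 0.90 for miR398b. miR398a-5p and miR2119 had r = 0.88, miR398b and miR2119 had r = 0.64, and miR398a-5p and miR398b had r = 0.35. These are descriptions over 9 libraries that share group, step and depth.
Once each library was taken as its deviation from its group mean, r with miR398a-3p was 0.34 for miR398a-5p, 0.19 for miR2119 and -0.01 for miR398b, and r between miR398a-5p and miR398b was -0.65. miR2119 was at 0 in all RW and DS libraries and miR398a-5p in all DS libraries, so their deviations there were 0. For these names r could not show whether they varied together with others in those libraries. In RW, miR398a-5p varied only through RW replicate 2. Within CK, miR398a-3p and miR2119 were highest in replicate 1 and lowest in replicate 3, and miR398a-5p and miR398b were highest in replicate 3 and lowest in replicate 1. Within DS, miR398a-3p and miR398b were both highest in replicate 3 and lowest in replicate 2. Within RW, miR398a-3p was lowest in replicate 3 while miR398b was lowest in replicate 2.

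Among the 335 other names tested, the pattern of PC-3p-78936_58 was most like that of 3 of the 4 names, with r of 0.98 to miR2119, 0.90 to miR398a-3p and 0.89 to miR398a-5p over the 9 libraries. It was listed at 0 in RW and DS and had a mean of 19.6 in CK. Next to miR398a-3p came ptc-miR162a_R+1 (r = 0.88, means 18.4 in RW, 21.2 in DS and 38.3 in CK) and mtr-miR5559-5p (r = 0.84, means 156 in RW, 810 in DS and 1655 in CK). Both rank RW lowest and CK highest, as miR398a-3p does.
Among the names most like miR398b were PC-5p-21436_288 (r = 0.92) and gma-miR5770b (r = 0.91). Next to miR2119 came mtr-miR1507-3p (r = 0.82) and mtr-miR396a-5p (r = 0.82), and next to miR398a-5p came mtr-MIR1510b-p5_1ss22CT (r = 0.76) and mtr-MIR2645-p3 (r = 0.75).

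The other names of the copper-responsive families miR397, miR398, miR408 and miR857 and of miR2119 numbered 12, with none of miR857 or miR2119, and 4 of them, all of miR408, were abundant enough to be tested. The 2 other miR398 names, gma-miR398c_L+2R-2 and nta-miR398_L+2R-2, list 1 sequence that starts 2 bases before miR398b and matches it over 19 bases.
gma-miR398c_L+2R-2: tATGTGTTctcaggtcgcccc
It is shown, seed in capitals, because it shares its miR398 bases with miR398b, and it was at 0 in all RW and DS libraries and at 5.48, 0 and 5.28 normalized counts in the CK libraries. The 3 names of miR397, a family that silences laccases, were also listed in CK only, at up to 4.70. Values this low in CK lie near or below what a DS library lists at all, so the zeros of these names carry little information.

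miR408, which silences plantacyanin and laccases, was the most abundant copper-responsive family, and its main name mtr-miR408-3p fell in RW vs. CK. It had 1908, 715 and 1167 normalized counts in the RW libraries, 1968, 3860 and 4784 in the DS libraries, and 3745, 4392 and 7109 in the CK libraries. DS and CK overlapped, and every RW library was below every DS and every CK library.
mtr-miR408-3p fell in RW vs. CK, with a log2 fold change of -2.06 (SE 0.43, limma adjusted p = 0.0177), and gave -0.56 in DS vs. CK (SE 0.43, limma adjusted p = 0.482) and -1.50 in RW vs. DS (limma adjusted p = 0.122). gma-miR408a-3p_L-1R+2 fell in DS vs. CK (log2 fold change -3.85, limma adjusted p = 0.0462) and gave -2.62 in RW vs. CK (limma adjusted p = 0.203).
bra-MIR408-p5 differed in its listed pattern from the miR398 names, with 7.36, 5.33 and 6.17 in RW, 0 in all DS libraries and 3.65, 3.72 and 8.55 in CK. It passed in no comparison (limma adjusted p = 0.0695 to 0.898). Its CK values of 3.65 and 3.72 lie below the smallest value that a DS library lists, 3.94 to 4.21, while its other CK value and its RW values lie above. Its DS zeros therefore say little about a difference from CK. Of the 3 miR408 names described here, 1 fell in DS vs. CK, 1 in RW vs. CK and 0 in RW vs. DS. Among all names tested, 3.24%, 2.36% and 0.885% fell in the same comparisons. Counts over so few names are descriptions only. Whether miR398 and miR408 differ in their response was not tested.

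**Figure D5:**
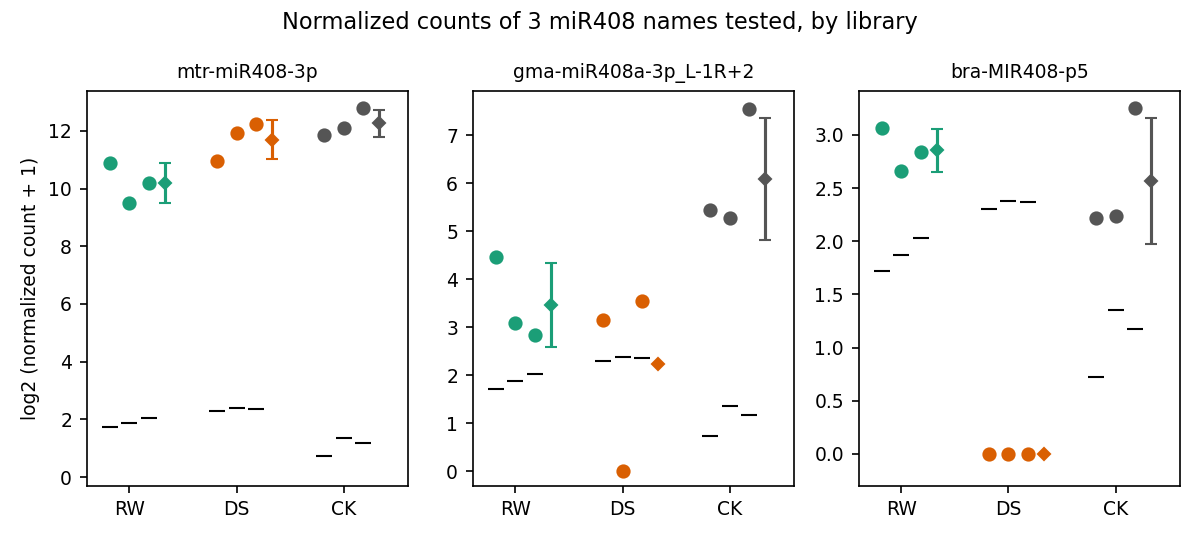
Normalized counts of 3 of the miR408 names that were tested, as log2 (value + 1) on the vertical axes, by group (RW, DS, CK). Points are libraries, dashes the smallest value above 0 that each library lists, and diamonds group means, with SD (n = 3) where all 3 libraries are above 0. The RW libraries of mtr-miR408-3p (715 to 1908) lie below its DS and CK libraries, and bra-MIR408-p5 is at 0 in DS only.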

How the data were processed

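Small RNA libraries were made from about 5 µg of total RNA. The authors cleaned the reads with ACGT101-miR (version not stated), which also discards structural RNAs, kept 18 to 25 nt and matched sequences to miRBase 22.0 precursors, allowing 1 mismatch and length changes at the ends. The deposited values are a signal, read counts multiplied by 1 factor per library, and how the factor was set is not given in any source used here. Low values lie on whole steps (98.8 to 100% per library, tolerance 0.02), but the 25 member values above 0 are all even numbers of steps, so read counts were not recovered and no counting interval is given.

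The table's 667 lines hold 595 names, each used once. Names with at least 5 in at least 3 libraries (339) were tested with limma 3.58.1 (trend, log2 (value + 1), 1 fit of 9 libraries, Benjamini-Hochberg 0.05) in R 4.3.3, checked on simulated data. This replaced a count-based test planned for whole counts. Shares were tested by exact permutation (scipy 1.17.1), and duplexes were folded with ViennaRNA 2.7.2. The authors' columns of comparisons were not used. The names described are the 4 members, other names of their copper-responsive families and the 3 most alike by Pearson's r, of which 1 name is not reported here. Members, lists and rules were chosen with earlier results of these data known. Alternatives were other scalings, pseudocounts, minimums, sample sets, a replicate block, the study's own test, and each library left out. Raised low values and fits that kept the tested names were added after seeing the data.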

Additional observations from a re-analysis of the deposited data

How the results depend on the processing

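All signs of the miR398a-3p, miR398a-5p and miR2119 fold changes against CK held in every setting in which they were fitted. For miR2119, and for miR398a-5p in DS vs. CK, no setting could turn the sign, since the treated libraries are all listed at 0. The other signs belong to names whose RW and DS libraries all lie below CK, so leaving out a library could not turn them. Leaving out 1 library at a time, the members called numbered 0 to 3 in DS vs. CK, 1 to 4 in RW vs. CK and 1 to 4 in the joint test, against 3 in each with all libraries. The lowest counts came without a CK library, where miR2119 no longer reached the minimum and was not tested. With the tested names kept, an alternative chosen after seeing the data, the members called were 1 without CK replicate 1 or 2 in DS vs. CK, and all names called were 3 to 6 without a CK library in DS vs. CK, and 7 to 8 without a CK library and 8 to 10 without RW replicate 2 or 3 in RW vs. CK. All names called numbered 18 in DS vs. CK, 18 in RW vs. CK and 8 in RW vs. DS, and 0 to 23, 5 to 22 and 0 to 14 in these comparisons when 1 library was left out. The study's own test, with no adjustment, called 33, 40 and 21. Fitting only the groups compared called 11 in DS vs. CK and 0 in RW vs. DS, a minimum of 20 called 4 in RW vs. DS, and low values raised to the largest smallest value called 29 in RW vs. CK. The cause was not tested.

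The miR398a-5p call in RW vs. CK was lost with median-of-ratios scaling, a pseudocount of 0.1 or 0.5 and no filter (limma adjusted p = 0.0509, 0.118, 0.0634 and 0.0514), while miR398b passed there with TMM or upper-quartile scaling, a pseudocount of 5, no filter or a minimum of 20 (0.0493, 0.0425, 0.0230, 0.0469 and 0.0332). With a replicate block, miR398a-5p in RW vs. CK had limma adjusted p = 0.0526 and miR398b 0.0334. Deviations of samples with the same number correlated at r = -0.15 to 0.06, and those of samples with different numbers at -0.14 to 0.19. These values gave no sign of pairing by number but cannot exclude it, and the labels do not say whether the numbers pair samples.

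The 5p share in DS vs. CK reversed to 1.88 points when values at 0 were raised. Leaving out 1 library, the difference of the 5p share in RW vs. CK ran from -4.03 without RW replicate 2 to 4.97, that of the miR398b share in RW vs. DS ran from -18.3 to 15.6 (without RW replicate 2, and 2.92 without DS replicate 1), and the joint exact permutation p of the miR398b share ran from 0.0214 to 0.446. The smallest value listed was 3.94 to 4.21 in DS and 2.30 to 3.09 in RW, which limits what zeros of miR398a-5p and miR2119 show.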
